A study of Mus musculus with 9 samples.

Results

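The genes described here encode the proteasome, its activators and its assembly factors, with their transcripts counted by RNA sequencing of mouse spleen Tregs, the regulatory T cells that hold immune responses in check. Members were the genes whose symbol starts with Psm, followed by a letter from a to g and a digit, with at least 10 counts in at least 3 libraries. The immunoproteasome genes Psmb8, Psmb9 and Psmb10 were set apart by this rule. Of 46 matching symbols, 44 were kept, and all 44 were among the 12219 genes tested of 23393 in the files. The symbols that were not kept are Psma8, a testis-enriched alpha subunit with at most 10 counts in a library, and Psmb11, the thymus-restricted catalytic subunit, which had 4 counts in ST2KO replicate 1 and 0 in the other 8 libraries. One kept gene, Psmc3ip, shares the prefix but encodes a factor of meiotic recombination and no proteasome subunit, so it is described by itself.

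The series deals with Tregs that carry ST2, the receptor for interleukin 33 encoded by Il1rl1, in the setting of kidney injury. Its labels give 3 groups of 3 spleen Treg samples each: wild-type cells low in ST2 (ST2-low), wild-type cells high in ST2 (ST2-high) and cells of the genotype ST2KO. The labels state neither the age of the mice nor a treatment, the sorting markers or the allele, and they do not say whether the replicates are separate mice. All p-values therefore rest on how far these samples spread, and that spread may be technical. ST2-low and ST2-high cells are fractions of wild-type Tregs, while nothing in the labels says that the ST2KO cells were divided in the same way.

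The proteasome degrades proteins that carry ubiquitin chains. Its barrel-shaped core particle (20S) is a stack of outer rings of alpha subunits (Psma genes), which gate the entry, and inner rings of beta subunits (Psmb genes), 3 of which cut peptide bonds. The regulatory particle (19S) binds the ubiquitin chain, unfolds the substrate with a ring of ATPases (Psmc genes) and removes the ubiquitin with its lid (Psmd genes). Dedicated chaperones, which are not part of the finished particle, put the rings together. In immune cells interferon replaces the catalytic subunits with those of the immunoproteasome and raises the activator made of Psme1 and Psme2, and T cells make more proteasomes when they are activated.

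Libraries held 11659659 to 43406680 counts, of which 25972 to 98113 fell on the 44 genes, and the ribosomal RNA precursor Rn45s took 12.1% to 16.9%. Levels are given as CPM, a gene's counts relative to all counts of its library with TMM scaling, and a gene is said to rise, fall or change where edgeR's quasi-likelihood test gave a Benjamini-Hochberg adjusted p of at most 0.05 over all 12219 genes. ST2-high replicate 3 stood apart from its group: the chi-square per gene was 17.4 and 21.2 against replicates 1 and 2, compared with 4.61 to 8.64 in the other pairs of replicates. Its summed proteasome level was also the lowest of its group, with 10 of 44 genes above the group mean, a count that ST2KO replicate 2 had too (10 to 32 over the 9 libraries). The Treg marker Foxp3 was present at 462 ± 16.3 CPM (ST2-low), 568 ± 47.8 CPM (ST2-high) and 430.2 ± 17.6 CPM (ST2KO) (mean ± SD, n = 3 here and below). Il1rl1 was at 2.62 ± 0.837 CPM (ST2-low), 495 ± 66 CPM (ST2-high) and 67.6 ± 14 CPM (ST2KO), so the gene named by the genotype was not at 0 in the libraries labelled ST2KO; counts per gene do not show whether its transcript was intact.

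Many subunit genes of the proteasome were lower in the libraries labelled ST2KO than in either wild-type group, while 4 of the 7 chaperones that assemble the particle were higher. Against ST2-low, 22 of the 44 genes fell and 7 rose, where 29.3% of all genes tested fell and 33% rose. Against ST2-high, 26 fell and 7 rose, where 32.6% of all genes fell and 31.9% rose. Between the wild-type groups the genes differed little: 7 of 44 rose in ST2-high and 0 fell by edgeR, against 15.3% and 10.8% of all genes. At an unadjusted edgeR p under 0.05, 12 were higher and 2 lower, and the share over all genes was not computed at that threshold. DESeq2's Wald test and limma-voom each called 1 lower, beside 1509 and 1364 of all 12219 genes. The 3 comparisons share groups, so their counts are not independent of each other.

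The size of these changes was small for most genes. The median log2 fold change of the 44 genes was -0.18 in ST2KO against ST2-low, -0.24 in ST2KO against ST2-high and 0.04 in ST2-high against ST2-low, where the medians of all genes were 0.05, 0.02 and -0.0024. Of the 31 subunits of the core and regulatory particles alone, 19 fell and 2 rose against ST2-low (61.3% and 6.45%, beside 29.3% and 33% of all genes). Against ST2-high, 23 fell and 1 rose (74.2% and 3.23%, beside 32.6% and 31.9%). Their summed level was 1757, 1671 and 1733 CPM in the ST2-low libraries, 1820, 1861 and 1719 in ST2-high and 1542, 1477 and 1540 in ST2KO. All 3 ST2KO libraries were below the 6 others, and the ST2KO mean of 1520 ± 37.0 CPM differed by -11.6% from the ST2-low mean of 1720 ± 44.4. The 7 chaperones summed to 64.6, 68.3 and 62.6 CPM in ST2-low, 61.8, 66.4 and 66.9 in ST2-high and 93.4, 89.4 and 90.5 in ST2KO. Here the ST2KO libraries were above all others, by 39.8% of the ST2-low mean, and the wild-type groups overlapped. This sum is weighted to the most abundant chaperone, Psmd5, at 21.6 CPM in ST2-low and 35.6 CPM in ST2KO. The other 6 differ in direction and size, and 3 of the 7 did not pass the test against ST2-low.

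**Figure D1:**
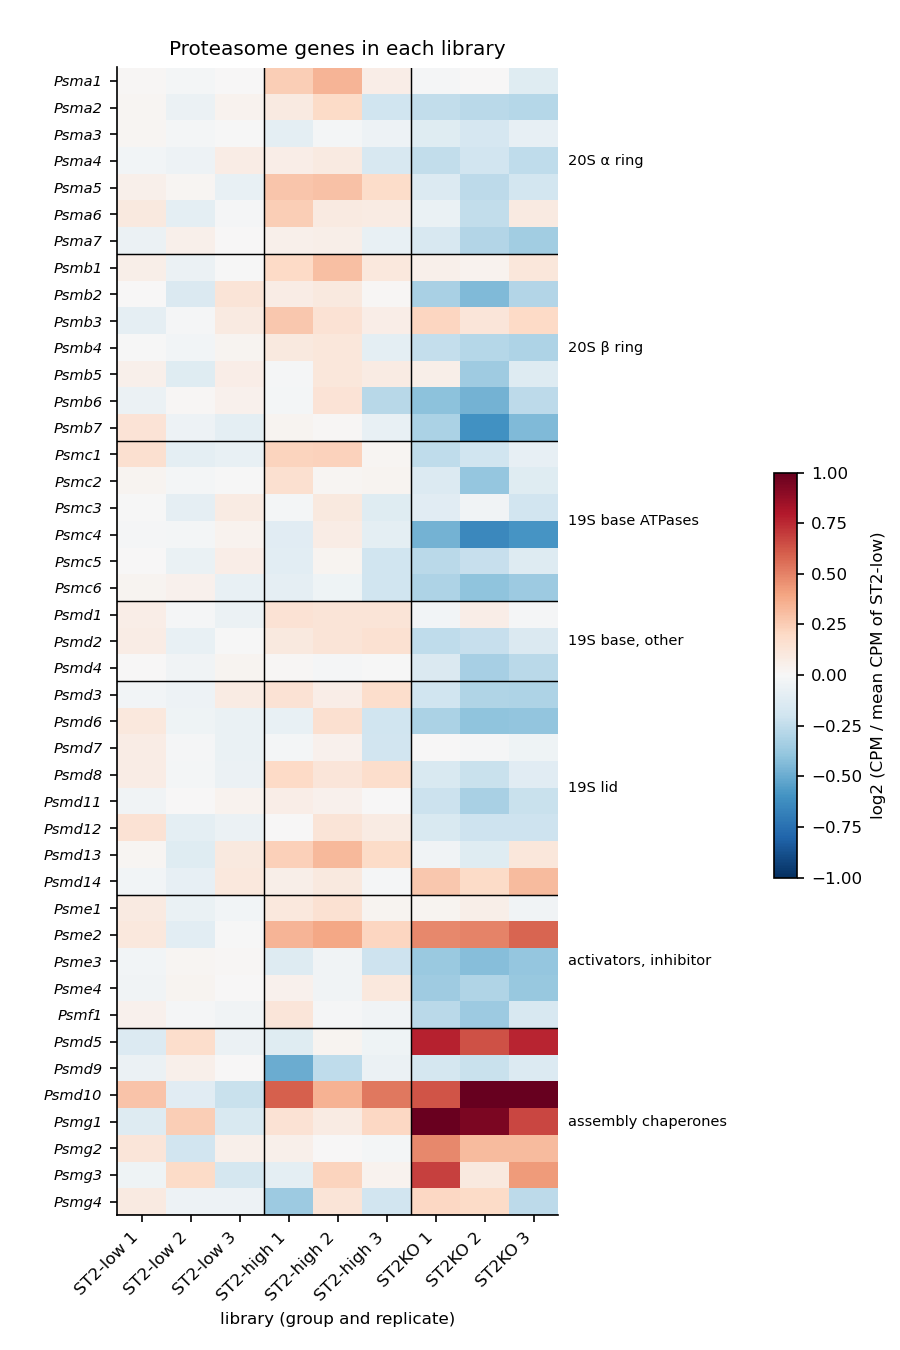
Level of 43 proteasome genes (rows, by role; Psmc3ip left out) in each of the 9 libraries (columns), as log2 of the CPM over the mean CPM of ST2-low; red is higher, blue lower, and colours end at -1 and 1. Most rows of the core and regulatory particles are blue in the ST2KO columns, and Psmd5, Psmd10, Psmg1, Psmg2 and Psme2 are red there.

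**Figure D2:**
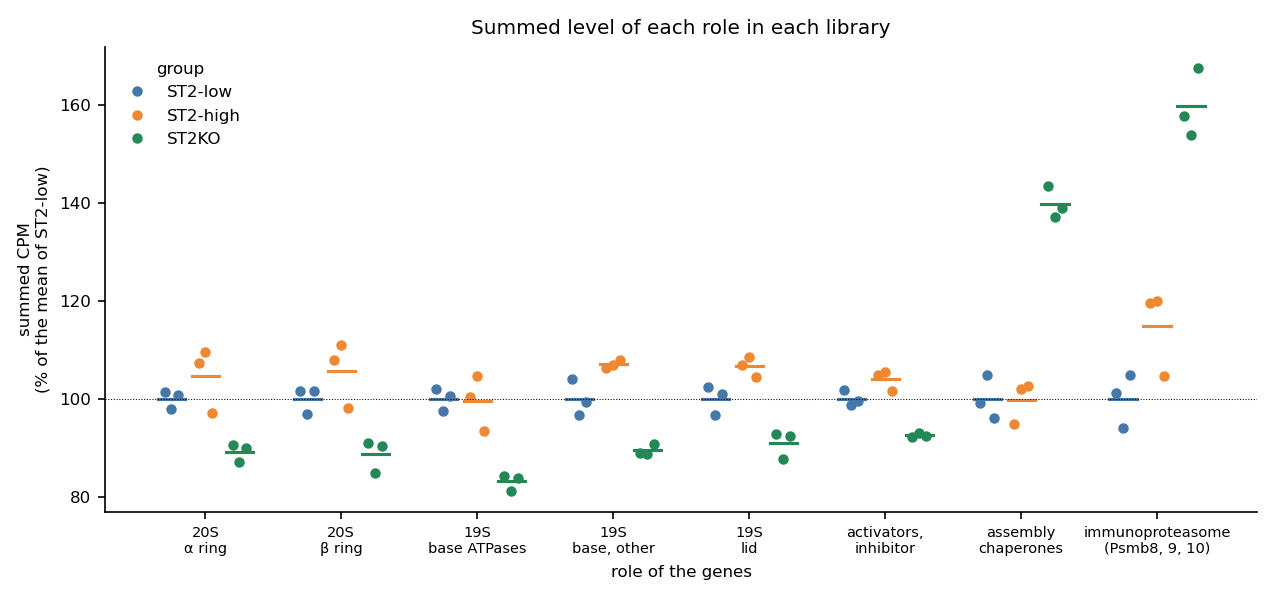
Summed CPM of the genes of each role in each library, as a percentage of the mean of ST2-low (dotted line at 100); points are libraries and short bars are group means. The ST2KO points lie lowest in the 6 roles from the alpha ring to the activators and highest for the assembly chaperones and for Psmb8, Psmb9 and Psmb10.

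The spread between replicates set what could be called. The median coefficient of variation of the 44 genes was 4.89% in ST2-low, 5.69% in ST2-high and 4.64% in ST2KO, and the smallest called change in ST2KO against ST2-low was that of Psmd8, 1.12-fold lower. Of the ST2KO changes, few passed a test against a minimum change of 25%: 5 genes against ST2-low (Psmd5, Psmd10, Psmg1 and Psme2 higher, Psmc4 lower) and 4 against ST2-high (3 higher, 1 lower). Scaling shifted the split of these genes and of all genes. With upper-quartile factors, 16 genes fell and 9 rose against ST2-low, beside 3124 and 4648 of all 12219. In the main fit 3577 of all genes fell and 4030 rose. The median of the proteasome genes changed from -0.18 to -0.11, and that of all genes from 0.05 to 0.12.

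Marker genes of other cell types moved with the ST2KO label too. The 11 myeloid and dendritic markers found in the files summed to 148 to 188 CPM (ST2-low), 140.1 to 141 CPM (ST2-high) and 43.1 to 57.0 CPM (ST2KO). Of the 10 tested, 8 were lower in ST2KO against ST2-low (80%, beside 29.3% of all genes). B cell markers summed to 89.0 to 138 CPM, 102 to 134 CPM and 78.5 to 104 CPM, and neutrophil markers to 6.18 to 24.4 CPM, 8.87 to 13.5 CPM and 2.54 to 3.51 CPM in the same order. Plasma cell markers summed to 205 to 259 CPM, 375 to 411 CPM and 197 to 216 CPM. Irf4 and Prdm1, which Tregs also express, rose in ST2-high against ST2-low (log2 fold change 0.93 ± 0.06, adjusted p = 3.06e-14 and log2 fold change 1.79 ± 0.07, adjusted p = 1.49e-18), while Igj, Sdc1 and Mzb1 did not pass there and fell in ST2KO against ST2-low (log2 fold change -0.69 ± 0.23, adjusted p = 0.0404; log2 fold change -1.15 ± 0.25, adjusted p = 0.000201; log2 fold change -1.38 ± 0.27, adjusted p = 0.000148). Markers of NK and CD8 T cells summed to 24.8 to 27.5 CPM, 20.2 to 21.3 CPM and 18.8 to 23.4 CPM. The 6 erythroid markers found summed to 4.63 to 6.83 CPM (ST2-low), 3.59 to 5.14 CPM (ST2-high) and 4.09 to 5.97 CPM (ST2KO). Of these, Hba-a1, Hba-a2 and Hbb-b1 were at 0 in all libraries. Among the 3 erythroid markers tested, 1 fell and 0 rose in ST2-high against ST2-low (33.3% and 0%, beside 10.8% and 15.3% of all genes). Of the 7 Treg markers, 3 rose and Ctla4 alone fell in ST2KO against ST2-low (log2 fold change -1.35 ± 0.05, adjusted p = 1.49e-19). These shares of 42.9% and 14.3% stand beside 33% and 29.3% of all genes. Against ST2-high, 2 rose and 3 fell (28.6% and 42.9%, beside 31.9% and 32.6% of all genes). The falls were those of Ctla4, Ikzf2 and Foxp3 (log2 fold change -0.40 ± 0.06, adjusted p = 3.56e-07 for Foxp3). In bulk RNA fewer cells of a type and less RNA per cell cannot be told apart, and the part of these cells in the proteasome values was not tested.

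The promoters of the genes were searched for the letters of sites known from proteasome genes. Windows of 250 bases before the start of transcription were available in RefSeq (GRCm38.p6) for 37 of the 44 genes and for 27025 genes in all, and both strands were read. The letters TGACNNNGC, the core of the antioxidant response element to which Nfe2l1 and Nfe2l2 bind, were found in 5 of 37 windows (13.5%), beside 11.5% of all windows. Those 5 stretches are shown because Nfe2l1 is the factor known to drive proteasome genes when the particle is inhibited. Bases are given 5′ to 3′ on the strand of the gene, with the match in capitals. Where the match is on the opposite strand its reverse complement is in capitals.
Psmb6 (catalytic beta subunit, plus strand, chr11:70525334-70525356): cggactaaagagagTGACGGAGC
Psmb5 (catalytic beta subunit, minus strand, chr14:54618020-54618056): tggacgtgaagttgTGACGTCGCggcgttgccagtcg
Psmc6 (ATPase, plus strand, chr14:45329583-45329619): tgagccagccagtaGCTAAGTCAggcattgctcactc
Psmd12 (lid, plus strand, chr11:107479278-107479303): tctGCTGTGTCAcatttgcccccctc
Psmd9 (chaperone, plus strand, chr5:123228145-123228181): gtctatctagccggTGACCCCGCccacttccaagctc
In Psmb6 the match ends at the last base before the start, and its first base lies 9 bases upstream. In the order shown, Psmb6, Psmc6 and Psmd12 fell in ST2KO against ST2-low, and Psmb5 and Psmd9 did not pass the test.

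The letters GGAAGT, bound by ETS factors, were in 15 of 37 windows (40.5%), beside 22.2% of all windows. They were found in 5 of the 6 lid genes that have a window, and these 5 are shown because they include the lid gene that rose in ST2KO, Psmd14, next to genes that fell.
Psmd6 (minus strand, chr14:14120969-14121002): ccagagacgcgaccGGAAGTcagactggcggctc
Psmd8 (minus strand, chr7:29180674-29180704): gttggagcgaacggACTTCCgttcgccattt
Psmd12 (plus strand, chr11:107479496-107479527): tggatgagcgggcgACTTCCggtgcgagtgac
Psmd13 (plus strand, chr7:140882290-140882323): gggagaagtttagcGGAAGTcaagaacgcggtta
Psmd14 (plus strand, chr2:61711565-61711598): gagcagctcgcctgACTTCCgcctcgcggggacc
Psmd14, the member of this set that rose, holds the same letters as Psmd6, Psmd8 and Psmd12, which fell in ST2KO against ST2-low. Psmd13 holds them too and did not pass the test there (log2 fold change -0.02 ± 0.08, adjusted p = 0.817). CCAAT was in 13 of 37 windows (35.1%), beside 37.5% of all windows; 5 of the 7 alpha subunit windows held it. The heat shock element, as a run of 3 inverted GAA units, was in 0 of 37 windows and in 0.5% of all. None of the matches shown shares a base with a match of another motif. A match is a run of letters and was not tested as a binding site.

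**Figure D3:**
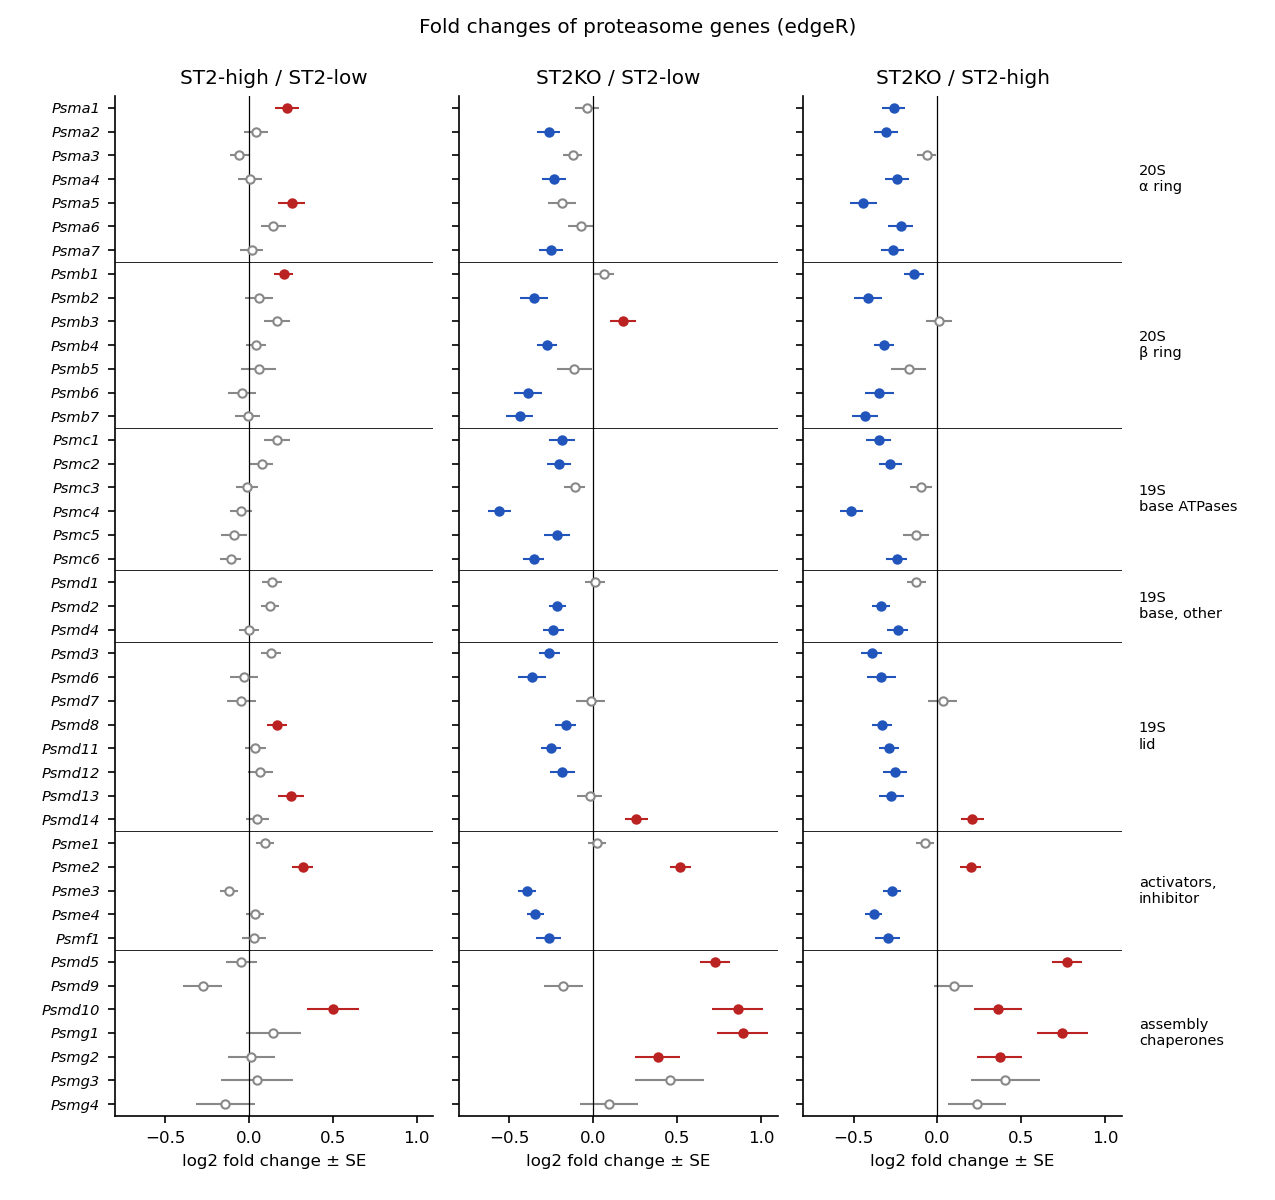
Log2 fold change with its standard error (edgeR) of 43 proteasome genes, by role, in the 3 comparisons; filled red points rose, filled blue points fell and open grey points did not pass an adjusted p of 0.05. In both ST2KO panels most filled points of the particle's own subunits are blue and those of the chaperones are red.

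The alpha ring, the gated outer ring of the core, was lower in ST2KO as a set of small shifts. All 7 genes had a negative log2 fold change in ST2KO against ST2-low, between -0.27 and -0.04, and 3 fell (42.9%, beside 29.3% of all genes). Psma2 was at 76.9, 73.04 and 77.8 CPM (ST2-low), 80.7, 86.9 and 66.2 CPM (ST2-high) and 63.9, 63.01 and 62.4 CPM (ST2KO). ST2KO was below all other libraries and the wild-type groups overlapped (log2 fold change -0.27 ± 0.07, adjusted p = 0.00196 against ST2-low). Psma7 was at 45.9, 49.5 and 47.9 CPM (ST2-low), 49.5, 49.9 and 45.4 CPM (ST2-high) and 42.8, 39.1 and 37.6 CPM (ST2KO). Again all ST2KO libraries were lowest (log2 fold change -0.25 ± 0.07, adjusted p = 0.00244). Psma4 fell by 0.23 on the log2 scale, a call lost with upper-quartile scaling. Against ST2-high, 6 of the 7 fell (85.7%, beside 32.6% of all genes), Psma6 no longer without ST2-high replicate 1 or ST2KO replicate 2. Psma3, with 83.5 ± 1.30 CPM (ST2-low), 80.3 ± 2.0 CPM (ST2-high) and 76.7 ± 2.18 CPM (ST2KO), did not pass the test.

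Alpha subunits made up 2 of the 7 rises in ST2-high. Psma5 was at 26.1, 25.6 and 23.9 CPM (ST2-low), 30.5, 30.9 and 28.6 CPM (ST2-high) and 22.95, 20.98 and 22.2 CPM (ST2KO). The ST2-high libraries were above all others (log2 fold change 0.25 ± 0.08, adjusted p = 0.0211 against ST2-low), and ST2KO was below ST2-low without passing the test (adjusted p = 0.0541). Psma1 was at 46.4, 45.3 and 46.1 CPM (ST2-low), 54.5, 58.3 and 48.2 CPM (ST2-high) and 45.6, 46.2 and 42.2 CPM (ST2KO), and ST2-high replicate 3, the lowest of its group, was still above the ST2-low libraries (log2 fold change 0.23 ± 0.07, adjusted p = 0.0161). The rise of both genes was lost when ST2-high replicate 1 or 2 was left out, that of Psma1 also without ST2-low replicate 2 and that of Psma5 without ST2-low replicate 3.

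Of the catalytic beta subunits, Psmb6 and Psmb7 fell in ST2KO and Psmb5 did not pass the test. Psmb7, the trypsin-like subunit, was at 52.9, 46.4 and 44.8 CPM (ST2-low), 48.9, 48.4 and 45.7 CPM (ST2-high) and 38.5, 31.6 and 35.3 CPM (ST2KO). The ST2KO libraries were below all others, and the change was 1.36-fold lower than in ST2-low (log2 fold change -0.44 ± 0.08, adjusted p = 1.43e-05). Psmb6, the caspase-like subunit, was at 40.4, 42.5 and 43.3 CPM (ST2-low), 41.4, 46.2 and 34.6 CPM (ST2-high) and 31.7, 30.2 and 35.02 CPM (ST2KO). In ST2KO it was 1.31-fold lower than in ST2-low (log2 fold change -0.39 ± 0.09, adjusted p = 0.000228), and ST2-high replicate 3 overlapped the ST2KO range. Psmb5, the chymotrypsin-like subunit, was at 20.1, 17.8 and 20.3 CPM (ST2-low), 19.2, 20.9 and 20.5 CPM (ST2-high) and 20.2, 15.1 and 17.7 CPM (ST2KO). All 3 groups overlapped (log2 fold change -0.11 ± 0.10, adjusted p = 0.352 against ST2-low), and ST2KO replicate 1 lay within the wild-type range.

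The structural beta subunits were divided. Psmb2 and Psmb4 fell in ST2KO, to 24.99 ± 1.32 CPM from 31.9 ± 3.07 in ST2-low and to 72.1 ± 1.88 CPM from 87.3 ± 1.53. Psmb1 was at 82.7, 76.2 and 79.2 CPM (ST2-low), 91.3, 97.8 and 85.5 CPM (ST2-high) and 82.2, 81.4 and 85.8 CPM (ST2KO). It rose in ST2-high (log2 fold change 0.21 ± 0.06, adjusted p = 0.00912), a call lost without ST2-low replicate 2 or ST2-high replicate 2, and its ST2KO libraries overlapped the ST2-low range. Psmb3 was at 30.3, 31.99 and 34.3 CPM (ST2-low), 38.8, 35.5 and 33.8 CPM (ST2-high) and 37.3, 34.95 and 36.9 CPM (ST2KO). Its rise in ST2KO was at the edge of the threshold (log2 fold change 0.18 ± 0.08, adjusted p = 0.0454) and was lost in 11 of 17 alternative analyses, among them those without ST2-low replicate 1 or 2 or ST2KO replicate 1 or 3.

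Exons of Psmb7 and Nek6, on opposite strands, share 34.9% of the exonic bases of Psmb7 in the GENCODE M21 annotation, and whether the authors' counting used strand is not given in the sources used here. Nek6 itself was at 2.18 ± 0.218 CPM (ST2-low), 2.10 ± 0.298 CPM (ST2-high) and 0.965 ± 0.0257 CPM (ST2KO) and fell in ST2KO too (log2 fold change -1.17 ± 0.30, adjusted p = 0.00137), and its part in the counts of Psmb7 was not tested. Processed copies of Psmb5, Psmb6 and Psmb7 are annotated as pseudogenes in GENCODE and have no symbol of their own in the files, so reads from them could have been counted for these genes.

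The ATPases of the 19S base, which pull the substrate into the core, had 1 direction. All 6 had negative log2 fold changes in ST2KO against both wild-type groups. Against ST2-low 5 fell (83.3%, beside 29.3% of all genes), and against ST2-high 4 fell (66.7%, beside 32.6%). Between the wild-type groups all 6 missed the threshold. Psmc4 showed the largest fall of all 44 genes. It was at 58.5, 58.3 and 60.4 CPM (ST2-low), 54.6, 62.1 and 55.1 CPM (ST2-high) and 42.5, 37.7 and 39.4 CPM (ST2KO), so that every ST2KO library was below the other 6 (1.47-fold lower than in ST2-low, log2 fold change -0.56 ± 0.07, adjusted p = 3.05e-08; 1.43-fold lower than in ST2-high, log2 fold change -0.51 ± 0.07, adjusted p = 1.39e-07). Psmc6 was at 70.6, 71.5 and 66.1 CPM (ST2-low), 65.04, 67.3 and 60.3 CPM (ST2-high) and 56.1, 52.5 and 53.9 CPM (ST2KO). Its ST2KO libraries were also below all others (log2 fold change -0.35 ± 0.06, adjusted p = 1.52e-05 against ST2-low). The falls of Psmc1, Psmc2 and Psmc5 against ST2-low were smaller, between -0.22 and -0.18, and each was lost with upper-quartile scaling. Leaving out 1 library also ended them: ST2KO replicate 2 for Psmc1 and Psmc2, ST2KO replicate 1 for Psmc1 and Psmc5, ST2-low replicate 1 for Psmc1 and ST2-low replicate 3 for Psmc5. The ST2KO and ST2-low ranges of Psmc1 overlapped. Psmc3 did not pass the test (log2 fold change -0.11 ± 0.07, adjusted p = 0.139).

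Psmd2, Psmd1 and Psmd4 complete the base: the first is a scaffold that docks ubiquitin-binding shuttles, the second a scaffold and the third a ubiquitin receptor. Psmd2 was at 148, 133 and 139.9 CPM (ST2-low), 150.1, 153 and 156 CPM (ST2-high) and 118, 119.8 and 127 CPM (ST2KO). The ST2KO libraries were lowest and the ST2-high libraries highest (log2 fold change -0.21 ± 0.05, adjusted p = 0.000948 against ST2-low; log2 fold change 0.12 ± 0.05, adjusted p = 0.0847 for ST2-high against ST2-low). Psmd4 was at 65.1, 63.6 and 66.4 CPM (ST2-low), 65.5, 64.6 and 64.9 CPM (ST2-high) and 58.9, 51.7 and 53.9 CPM (ST2KO). It fell in ST2KO (log2 fold change -0.24 ± 0.06, adjusted p = 0.00157), with no overlap, and the wild-type groups had the same mean. Psmd1, at 67.1 ± 2.91 CPM (ST2-low), 73.7 ± 0.426 CPM (ST2-high) and 67.6 ± 2.39 CPM (ST2KO), passed in no comparison. The other ubiquitin receptor of the base, Adrm1, which does not carry the Psm prefix, fell too, to 32.9 ± 2.67 CPM from 42.7 ± 4.77 in ST2-low (log2 fold change -0.38 ± 0.08, adjusted p = 0.000167).

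In the lid, 5 of 8 genes fell in ST2KO against ST2-low and 1 rose (62.5% and 12.5%, beside 29.3% and 33% of all genes). Psmd6 was at 41.1, 37.1 and 36.4 CPM (ST2-low), 36.3, 42.7 and 33.3 CPM (ST2-high) and 30.7, 28.9 and 29.1 CPM (ST2KO). Its ST2KO libraries were below all others (log2 fold change -0.36 ± 0.08, adjusted p = 0.000388). Psmd3 was at 66.1, 65.2 and 71.3 CPM (ST2-low), 74.8, 70.9 and 76.2 CPM (ST2-high) and 58.9, 54.8 and 54.7 CPM (ST2KO), lowest in ST2KO without overlap (log2 fold change -0.26 ± 0.06, adjusted p = 0.00056). Psmd11, Psmd12 and Psmd8 fell as well, by 0.25, 0.18 and 0.16 on the log2 scale; the latter pair was lost with upper-quartile scaling, without ST2-low replicate 1 and without ST2KO replicate 2, and Psmd12 also without ST2KO replicate 3. Psmd7, the catalytically inactive partner of Psmd14, was at 24.3 ± 1.19 CPM (ST2-low), 23.4 ± 1.91 CPM (ST2-high) and 23.95 ± 0.357 CPM (ST2KO) and passed in no comparison.

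Psmd14, the metalloprotease that cuts ubiquitin chains off the substrate, went the other way from its neighbours in the lid. It was at 42.6, 40.99 and 46.7 CPM (ST2-low), 45.3, 46.5 and 43.1 CPM (ST2-high) and 52.3, 49.5 and 54.01 CPM (ST2KO). The ST2KO libraries were above all others, 1.19-fold higher than ST2-low (log2 fold change 0.26 ± 0.07, adjusted p = 0.00171) and 1.15-fold higher than ST2-high (log2 fold change 0.21 ± 0.07, adjusted p = 0.00916). The first of these calls held in all alternatives other than the minimum change of 25%, and the second was also lost without ST2-high replicate 3.

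Psmd13 and Psmd8 were the lid genes that rose in ST2-high. Psmd13 was at 36.8, 33.4 and 38.8 CPM (ST2-low), 42.9, 45.5 and 41.4 CPM (ST2-high) and 35.4, 33.3 and 39.2 CPM (ST2KO), with the ST2-high libraries above all others (log2 fold change 0.25 ± 0.08, adjusted p = 0.0139 against ST2-low). Psmd8 was at 71.2, 66.7 and 64.97 CPM (ST2-low), 77.5, 73.8 and 76.3 CPM (ST2-high) and 60.8, 57.9 and 62.5 CPM (ST2KO), highest in ST2-high and lowest in ST2KO (log2 fold change 0.17 ± 0.06, adjusted p = 0.0392 in ST2-high against ST2-low, log2 fold change -0.16 ± 0.06, adjusted p = 0.0205 in ST2KO against ST2-low). The rise of Psmd13 was lost without ST2-low replicate 2 or ST2-high replicate 2, and that of Psmd8 in 9 of 17 alternatives, among them those without ST2-low replicate 2 or 3 or ST2-high replicate 1 or 3.

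Psme2, a subunit of the activator PA28, rose in all 3 comparisons. It was at 75.9, 65.5 and 70.2 CPM (ST2-low), 89.4, 92.3 and 82.01 CPM (ST2-high) and 98.2, 99.6 and 106 CPM (ST2KO). No library of 1 group reached the range of another: Psme2 rose in ST2-high against ST2-low (log2 fold change 0.32 ± 0.06, adjusted p = 0.000199), more so in ST2KO against ST2-low (1.43-fold higher, log2 fold change 0.52 ± 0.06, adjusted p = 1.94e-08), and in ST2KO against ST2-high (log2 fold change 0.20 ± 0.06, adjusted p = 0.00582); without ST2-high replicate 3 the last of these calls was lost. Psme1, which forms the same ring with Psme2, was at 141, 126 and 129 CPM (ST2-low), 142, 147 and 134 CPM (ST2-high) and 135, 138 and 129 CPM (ST2KO). Its groups overlapped and it passed in no comparison. The count ratio of Psme2 to Psme1 was 0.534 ± 0.012 in ST2-low, 0.623 ± 0.010 in ST2-high and 0.757 ± 0.054 in ST2KO. A near-identical copy of Psme2, Psme2b, is not among the symbols of the files, so the share of reads it received cannot be told from Psme2.

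The nuclear activators and the inhibitor fell in ST2KO. Psme3, which forms the nuclear activator PA28 gamma, was at 126, 129.5 and 129 CPM (ST2-low), 117, 125 and 111 CPM (ST2-high) and 98.9, 95.2 and 97.5 CPM (ST2KO). ST2KO was lowest, and ST2-high lay between without passing the test (log2 fold change -0.39 ± 0.05, adjusted p = 2.17e-07 in ST2KO against ST2-low; log2 fold change -0.12 ± 0.05, adjusted p = 0.0969 in ST2-high against ST2-low). Psme4, the activator PA200, was at 163, 169.7 and 167 CPM (ST2-low), 171, 162 and 179 CPM (ST2-high) and 130.0, 135 and 128 CPM (ST2KO). All 3 ST2KO libraries were below the wild type, whose groups overlapped (log2 fold change -0.35 ± 0.05, adjusted p = 9.72e-07). Psmf1, the inhibitor PI31, was at 38.9, 37.4 and 36.9 CPM (ST2-low), 40.98, 37.5 and 36.8 CPM (ST2-high) and 31.4, 29.4 and 33.7 CPM (ST2KO) and showed the same pattern (log2 fold change -0.27 ± 0.08, adjusted p = 0.00305).

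Psmd5, Psmg1 and Psmd10, which are assembly chaperones, rose most in ST2KO against ST2-low. Of 7 chaperone genes, 4 rose in ST2KO against each wild-type group, and the other 3 did not pass the test. That is 57.1%, beside 33% of all genes against ST2-low and 31.9% against ST2-high. Psmd5, which holds the ATPase ring before it joins the core, was at 19.7, 24.3 and 20.7 CPM (ST2-low), 19.9, 21.97 and 20.9 CPM (ST2-high) and 36.7, 33.6 and 36.5 CPM (ST2KO). Every ST2KO library was above every wild-type library, 1.65-fold higher than ST2-low (log2 fold change 0.73 ± 0.09, adjusted p = 2.6e-08) and 1.71-fold higher than ST2-high (log2 fold change 0.77 ± 0.09, adjusted p = 7.1e-09). Psmg1, a chaperone of the alpha ring, was at 4.86, 6.29 and 4.77 CPM (ST2-low), 5.86, 5.62 and 6.13 CPM (ST2-high) and 10.5, 10.2 and 8.43 CPM (ST2KO). The ST2KO libraries were again above all others (1.85-fold higher than ST2-low, log2 fold change 0.89 ± 0.15, adjusted p = 1.01e-05). Its partner Psmg2 was at 8.48, 6.84 and 8.09 CPM (ST2-low), 8.09, 7.83 and 7.71 CPM (ST2-high) and 10.9, 9.70 and 9.74 CPM (ST2KO), and the rise was smaller (log2 fold change 0.39 ± 0.13, adjusted p = 0.0139 against ST2-low); it was lost without ST2KO replicate 1 and without ST2-low replicate 2.

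Psmd10 (gankyrin), a chaperone that binds the ATPase Psmc4, was at 7.94, 6.01 and 5.58 CPM (ST2-low), 9.87, 8.29 and 9.36 CPM (ST2-high) and 10.1, 12.98 and 13.01 CPM (ST2KO). The 3 groups did not overlap: ST2-high was 1.42-fold higher than ST2-low (log2 fold change 0.50 ± 0.15, adjusted p = 0.0144) and ST2KO 1.82-fold higher than ST2-low (log2 fold change 0.86 ± 0.15, adjusted p = 1.17e-05). The difference between ST2KO and ST2-high (log2 fold change 0.36 ± 0.14, adjusted p = 0.0309) was lost with limma-voom and when ST2-high replicate 2 or 3 or ST2KO replicate 2 or 3 was left out, and the one between the wild-type groups without ST2-low replicate 2 or 3 or ST2-high replicate 1. Psmd10 rose in ST2KO while Psmc4, the subunit it binds, fell.

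The other chaperones passed in no comparison. Psmg3 was at 3.19, 3.75 and 2.92 CPM (ST2-low), 3.07, 3.83 and 3.36 CPM (ST2-high) and 5.28, 3.51 and 4.42 CPM (ST2KO), with 51 to 243 counts in a library (log2 fold change 0.46 ± 0.21, adjusted p = 0.057 in ST2KO against ST2-low). Its ST2KO range overlapped that of the wild type. Psmg4 was at 6.27, 5.68 and 5.68 CPM (ST2-low), 4.57, 6.44 and 5.14 CPM (ST2-high) and 6.80, 6.72 and 4.91 CPM (ST2KO), and Psmd9, the third chaperone of the ATPases, was at 14.2, 15.4 and 14.9 CPM (ST2-low), 10.5, 12.5 and 14.2 CPM (ST2-high) and 13.1, 12.7 and 13.5 CPM (ST2KO). Psmd9 was lowest in ST2-high and overlapped in the wild type (log2 fold change -0.28 ± 0.12, adjusted p = 0.0829 in ST2-high against ST2-low). GENCODE places 26.8% of the exonic bases of Psmg3 also in Gm26938, a gene model on the same strand with no symbol in the files.

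The maturation factor Pomp, which the rule did not take, rose in ST2-high (39.9 ± 5.48 CPM beside 33.5 ± 1.32 in ST2-low, log2 fold change 0.25 ± 0.08, adjusted p = 0.0232) and gave no call in ST2KO, with 37.5 ± 1.65 CPM (log2 fold change 0.17 ± 0.08, adjusted p = 0.0821 against ST2-low). The wild-type ranges overlapped, and the call was lost with DESeq2's Wald test and without ST2-low replicate 2, ST2-high replicate 1 or ST2-high replicate 2. The small lid subunit Shfm1, at 23.9 ± 0.649 CPM (ST2-low), 24.9 ± 2.49 CPM (ST2-high) and 21.3 ± 3.04 CPM (ST2KO), passed in ST2KO against ST2-high (log2 fold change -0.25 ± 0.10, adjusted p = 0.0258) and in neither of the other comparisons; this fall was lost with upper-quartile scaling and without ST2-high replicate 1, ST2KO replicate 1 or ST2KO replicate 2.

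**Figure D4:**
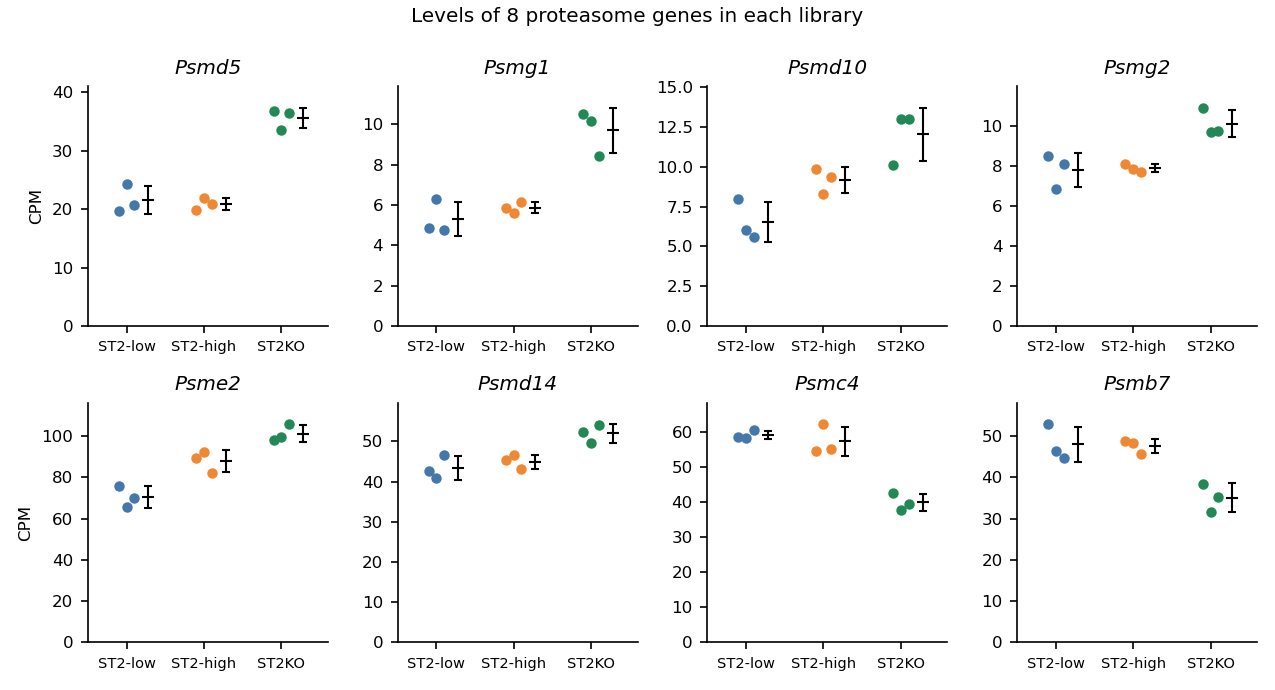
CPM of 8 proteasome genes in each library (points, by group) with the group mean and SD beside them (black), each axis from 0. In Psmd5, Psmg1, Psmd10, Psmg2, Psme2 and Psmd14 the ST2KO libraries lie above the others, and in Psmc4 and Psmb7 below.

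Transcripts of the 7 chaperones that the rule took were scarce relative to those of the subunits. Per kilobase of the protein-coding exons in GENCODE M21, which may not be the annotation the authors counted on, the 7 chaperones ranged from 3.72 (Psmg3) to 10.6 CPM per kilobase (Psmg4) in ST2-low. The 31 subunits ranged from 15.3 (Psmd7) to 73.8 CPM per kilobase (Psmb4) on the same scale, so that these ranges did not overlap. Pomp, which the rule did not take, is outside this comparison. It was at 33.5 CPM in ST2-low, and its level per kilobase was not computed. Psme1 stood highest of the 44 genes, at 119.0 CPM per kilobase. In ST2KO, Psmd5 reached 8.09, Psmg1 9.29 and Psmd10 8.19 CPM per kilobase, still below every subunit of the particle.

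The catalytic immunoproteasome genes, which the rule set apart, were higher in ST2KO, where their constitutive counterparts Psmb6 and Psmb7 fell and Psmb5 did not pass the test. Psmb8, Psmb9 and Psmb10 all rose in ST2KO, 1.56-fold higher, 1.76-fold higher and 1.54-fold higher than in ST2-low (log2 fold change 0.64 ± 0.06, adjusted p = 2.58e-10 for Psmb8, log2 fold change 0.82 ± 0.07, adjusted p = 3.42e-11 for Psmb9, log2 fold change 0.62 ± 0.08, adjusted p = 1.28e-07 for Psmb10). Psmb8 and Psmb9 also rose in ST2-high against ST2-low (log2 fold change 0.19 ± 0.06, adjusted p = 0.021 and log2 fold change 0.32 ± 0.07, adjusted p = 0.00131). Psmb10 did not pass there (adjusted p = 0.332). The ST2-high call of Psmb8 was lost with DESeq2's Wald test and without ST2-low replicate 2 or ST2-high replicate 1 or 2. In each library the count ratio of these genes to the subunit each replaces was therefore compared, which does not depend on scaling. Psmb9 to Psmb6 was 0.663, 0.647 and 0.679 in ST2-low, 0.867, 0.749 and 0.973 in ST2-high and 1.58, 1.57 and 1.42 in ST2KO. All ST2KO libraries had more Psmb9 than Psmb6 counts and all wild-type libraries fewer.

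The other pairs moved in the same direction. Psmb10 to Psmb7 was 0.641, 0.634 and 0.832 in ST2-low, 0.764, 0.793 and 0.727 in ST2-high and 1.33, 1.53 and 1.58 in ST2KO. Psmb8 to Psmb5 was 4.36, 4.54 and 4.30, then 5.30, 4.91 and 4.21, then 6.44, 8.57 and 7.91 in the same order. For no pair did the ST2KO range overlap that of the wild type, and with 3 libraries a group an exact permutation test cannot go below p = 0.1, so none is given. Psmb9 shares 15.7% of its exonic bases with its neighbour Tap1 in GENCODE, and Tap1 rose as well (log2 fold change 0.60 ± 0.05, adjusted p = 2.23e-11).

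**Figure D5:**
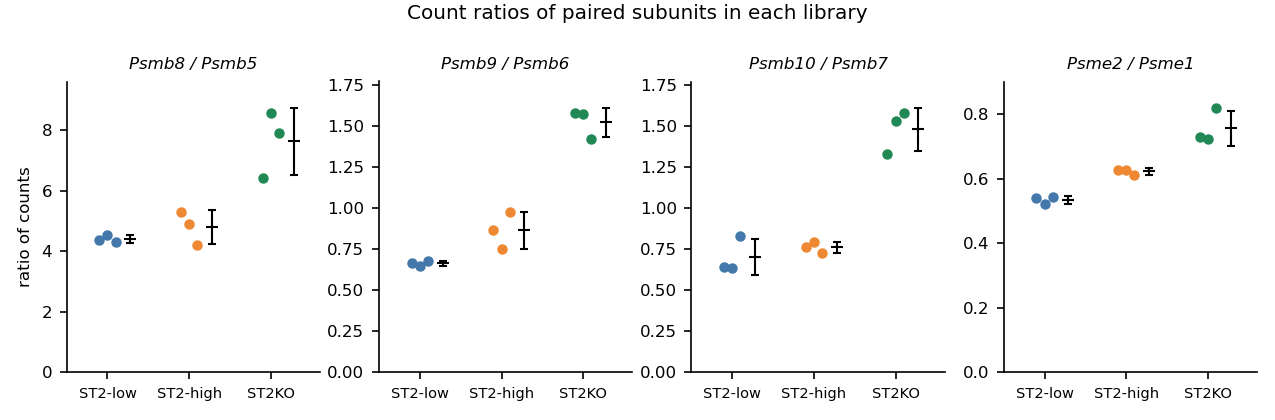
Ratio of the counts of paired genes in each library (points, by group), with mean and SD (black), each axis from 0: immunoproteasome over constitutive catalytic subunit in the first 3 panels and Psme2 over Psme1 in the last. In all 4 panels the ST2KO points lie above those of ST2-low and ST2-high.

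Genes around the proteasome, from a list chosen for the pathway, were followed in the same fit. Where calls are said to be lost, losses under the minimum change of 25% are not named. Among the E1 enzymes, which activate ubiquitin, Uba1 was at 363 ± 8.63 CPM in ST2-low and 322 ± 8.44 in ST2KO (log2 fold change -0.17 ± 0.05, adjusted p = 0.0036), and Uba6 was at 56.2 ± 3.21 and 49.8 ± 1.72 CPM (log2 fold change -0.17 ± 0.06, adjusted p = 0.0203). Both calls were lost with upper-quartile scaling, and that of Uba6 also without ST2-low replicate 2, ST2KO replicate 1 or ST2KO replicate 3. The unfoldase p97, which pulls ubiquitin-tagged proteins out of complexes and hands them to the proteasome, is encoded by Vcp. It fell from 239 ± 3.34 to 196 ± 4.46 CPM (log2 fold change -0.29 ± 0.05, adjusted p = 8.05e-06) and rose in ST2-high (266 ± 10.6 CPM, log2 fold change 0.15 ± 0.05, adjusted p = 0.0202); the rise was lost with DESeq2 size factors, with a filter of 5 CPM and without ST2-low replicate 2, ST2-low replicate 3 or ST2-high replicate 1. Its cofactor Nploc4 was at 93.5 ± 2.14 CPM in ST2-low and 78.1 ± 3.11 in ST2KO (log2 fold change -0.26 ± 0.06, adjusted p = 0.000176). Its other cofactor, Ufd1l, fell against ST2-low (log2 fold change -0.20 ± 0.07, adjusted p = 0.0177), a call lost with upper-quartile scaling and without ST2-low replicate 3 or ST2KO replicate 1. It did not pass the test against ST2-high (adjusted p = 0.136), where Uba1, Uba6, Vcp and Nploc4 fell; Uba6 no longer did with upper-quartile scaling or without ST2KO replicate 1 or 3. Ubb, which encodes ubiquitin, fell from 67.2 ± 3.0 to 54.3 ± 6.85 CPM (log2 fold change -0.29 ± 0.08, adjusted p = 0.00125), while Rps27a, which encodes ubiquitin joined to a ribosomal protein, did not pass the test (adjusted p = 0.085).

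The COP9 signalosome, a complex built like the lid that removes Nedd8 from ubiquitin ligases, had a lower summed level in ST2KO. Its 9 genes summed to 371 ± 10.4 CPM (ST2-low), 373 ± 24.7 CPM (ST2-high) and 286 ± 2.52 CPM (ST2KO), a difference of -23.0% from ST2-low beside -9.07% for the lid; these differences were not tested against each other. Against ST2-low 5 fell and 1 rose (55.6% and 11.1%, beside 29.3% and 33% of all genes). Cops8 (log2 fold change -0.69 ± 0.07, adjusted p = 9.7e-10), Cops3 (log2 fold change -0.66 ± 0.08, adjusted p = 9.63e-09) and Cops2 (log2 fold change -0.54 ± 0.06, adjusted p = 7.15e-09) fell furthest, and Cops7a rose (log2 fold change 0.55 ± 0.12, adjusted p = 0.000176). Against ST2-high 5 fell (55.6%, beside 32.6% of all genes), and Cops7a and Cops7b rose (22.2%, beside 31.9%); the rise of Cops7a was lost without ST2-high replicate 1, and that of Cops7b without ST2-high replicate 3 or ST2KO replicate 1. Cops4 alone passed between the wild-type groups (log2 fold change 0.19 ± 0.07, adjusted p = 0.0499), and the call was lost in 15 of 17 alternatives.

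Of 18 proteins that work on or with the proteasome, 8 fell and 4 rose in ST2KO against ST2-low, or 44.4% and 22.2%, beside 29.3% and 33% of all genes. Those that bring substrates were among the falls, with Rad23b (log2 fold change -0.40 ± 0.06, adjusted p = 5.27e-07) and Ubqln2 (log2 fold change -0.28 ± 0.06, adjusted p = 0.00026), as was Akirin2, which carries proteasomes into the nucleus (log2 fold change -0.61 ± 0.06, adjusted p = 7.11e-10). The importin Ipo9, its partner in that import, was higher (log2 fold change 0.14 ± 0.06, adjusted p = 0.0336), a call lost in 9 of 17 alternatives, among them DESeq2 and leaving out ST2-low replicate 1 or 2 or ST2KO replicate 1 or 2. Zfand2a, a stress-induced partner of the 19S particle, fell furthest, from 94.7 ± 3.63 to 41.7 ± 10.2 CPM (log2 fold change -1.20 ± 0.13, adjusted p = 2.07e-05), and was lower in ST2-high too (log2 fold change -0.40 ± 0.13, adjusted p = 0.0441), a call lost with the replicate block and without any 1 of the 6 wild-type libraries. Of the 3 ubiquitin ligases on the list, 2 rose: Ube3a from 97.8 ± 6.51 to 145 ± 4.79 CPM (log2 fold change 0.57 ± 0.06, adjusted p = 1.25e-09) and Ube3c from 70.8 ± 3.45 to 94.5 ± 0.481 CPM (log2 fold change 0.42 ± 0.06, adjusted p = 1.65e-06). The third, Rnf181, did not pass the test (adjusted p = 0.799). The deubiquitinases Usp14 and Uchl5 did not pass the test against ST2-low (adjusted p = 0.0831 and 0.536). Against ST2-high 8 fell and 3 rose (44.4% and 16.7%, beside 32.6% and 31.9% of all genes). In ST2-high against ST2-low 3 fell (Ubqln4, Ube3a and Zfand2a), or 16.7%, beside 10.8% of all genes. The call of Ube3a was lost without ST2-low replicate 2 or ST2-high replicate 2.

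Of 8 tested genes that control proteasome transcription, 3 rose and 2 fell in ST2KO against ST2-low, shares (37.5% and 25%) close to the 33% and 29.3% of all genes. Nfe2l1 was at 87.0 ± 3.71 CPM (ST2-low), 77.1 ± 3.34 CPM (ST2-high) and 80.6 ± 0.608 CPM (ST2KO). It was lower in ST2-high than in ST2-low (log2 fold change -0.18 ± 0.06, adjusted p = 0.0208), which was lost without ST2-low replicate 1 or 3 or ST2-high replicate 1 or 2, and it did not pass the test in ST2KO (log2 fold change -0.11 ± 0.06, adjusted p = 0.0963). Ddi2, the protease that frees Nfe2l1 from the membrane, fell from 45.4 ± 3.10 to 28.04 ± 3.29 CPM (log2 fold change -0.72 ± 0.09, adjusted p = 3.36e-08) and was lower in ST2-high as well (log2 fold change -0.42 ± 0.09, adjusted p = 0.000431). Ngly1, the glycanase of the same route, rose (log2 fold change 0.39 ± 0.07, adjusted p = 1.91e-05). Nfe2l2 was at 28.2 ± 2.12 CPM (ST2-low), 25.9 ± 1.05 CPM (ST2-high) and 23.7 ± 3.97 CPM (ST2KO) (log2 fold change -0.23 ± 0.10, adjusted p = 0.0382 in ST2KO against ST2-low); its fall was lost with upper-quartile scaling and without ST2-low replicate 1 or ST2KO replicate 3. Keap1, which targets Nfe2l2 for degradation, rose (log2 fold change 0.75 ± 0.08, adjusted p = 3.77e-09). Zfp143 rose most of the list, from 12.5 ± 1.31 to 32.5 ± 3.70 CPM (log2 fold change 1.39 ± 0.10, adjusted p = 5.69e-13). Hsf1 fell in ST2-high (log2 fold change -0.24 ± 0.06, adjusted p = 0.00264) and did not pass the test in ST2KO (log2 fold change -0.13 ± 0.06, adjusted p = 0.0546). Ddi1 was at 0 in all libraries.

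Psmc3ip was close to the limit of detection, with 0 to 78 counts in a library. It was at 0.865, 0.883 and 0.503 CPM (ST2-low), 0.663, 0.812 and 0 CPM (ST2-high) and 1.69, 1.11 and 1.15 CPM (ST2KO). The ST2KO libraries were highest, without passing the test against ST2-low (log2 fold change 0.88 ± 0.46, adjusted p = 0.0998), and the rise against ST2-high (log2 fold change 1.38 ± 0.48, adjusted p = 0.0143) was lost without ST2-high replicate 3, the library at 0, and without ST2KO replicate 1. Its exons share 29.8% of their bases with Mlx on the opposite strand, and Mlx rose in ST2KO as well, from 14.4 ± 0.863 to 30.02 ± 1.67 CPM (log2 fold change 1.06 ± 0.09, adjusted p = 2.53e-11); the part of Mlx reads in the counts of Psmc3ip was not tested.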

How the data were processed

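RNA of 9 spleen Treg samples (3 a group) was analysed from the whole-number counts per gene symbol that the authors deposited, 1 file a sample, with no normalization in the values. Their aligner, genome build, annotation, counting tool and strand setting are not given in the sources used. Rows whose symbol had become a date (27 of 23420) were left out. Genes with low counts were removed with filterByExpr by group (minimum count of 10 and minimum total of 15, both required). The rest were scaled with TMM and fitted with edgeR 4.0.16 (robust glmQLFit on all 9 samples, no covariate, limma 3.58.1, R 4.3.3). P-values were adjusted by Benjamini-Hochberg over 12219 genes. The script was checked on simulated counts. Levels are CPM with TMM factors, means ± SD; fold changes are given with SE. Alternatives were DESeq2 1.42.0, limma-voom, other scalings and filters, a minimum change of 25%, a replicate block and leaving out each replicate.

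The members and lists were chosen with earlier results of these data known. All members are accounted for by role; values in every library are given for the catalytic subunits, activators, inhibitor and chaperones, and for up to 2 members of each role with the largest rise and fall. No score or p over the list was computed. Of the list around ubiquitin, some genes are not reported here and no count over it is given. Promoters came from the RefSeq table of GRCm38.p6, and exon lengths and overlaps from GENCODE M21. With counts of 51 or more in every library for 43 of the genes, low counts limit Psmc3ip most.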

Additional observations from a re-analysis of the deposited data

How the results depend on the processing

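No call of a proteasome gene reversed under any alternative. In ST2KO against ST2-low 21 of 29 called genes, and against ST2-high 25 of 33, passed in the same direction in all alternatives other than a minimum change of 25%; in ST2-high against ST2-low this held for 1 of 7, Psme2. With that minimum (glmTreat) 5 genes (4 higher, 1 lower), 4 (3 higher, 1 lower) and 0 were called in the same order, of 4246, 4635 and 826 genes in all. Upper-quartile factors moved the median log2 fold change to -0.11 against ST2-low and -0.16 against ST2-high, beside medians of 0.12 and 0.099 for all genes. In ST2-high against ST2-low, 1 gene fell with DESeq2 size factors, DESeq2's Wald test (Psme3 in both) and limma-voom (Psmd9), and 2 (Psme3 and Psmd9) with a filter of 5 CPM; 6 of 7 calls were then higher with DESeq2. Of all 12219 genes, 1612 fell with DESeq2 size factors, 1509 with DESeq2's Wald test and 1364 with limma-voom. Of 9466 genes, 1666 fell with the filter of 5 CPM. The cause of these differences between settings was not tested.

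Leaving out each replicate gave 2 to 9 calls in ST2-high against ST2-low (2 to 9 higher, 0 to 1 lower): 2 without ST2-low replicate 2, 4 without ST2-low replicate 3, 3 without ST2-high replicate 1, 4 without ST2-high replicate 2 (3 higher) and 9 without ST2-high replicate 3 (8 higher). It gave 25 to 29 against ST2-low, with a median of -0.20 to -0.12 (nearest to 0 without ST2-low replicate 1), and 31 to 33 against ST2-high, where 3 to 7 rose; the 3, with 30 that fell, came without ST2-high replicate 3, when Psmd14, Psme2, Psmd10 and Psmc3ip lost their calls. Over all genes, leaving out a replicate gave 2478 to 3266 calls in ST2-high against ST2-low. It gave 6952 to 7355 in ST2KO against ST2-low and 7127 to 7775 in ST2KO against ST2-high. Between groups, deviations from the group mean correlated at -0.063 to 0.098 for same-numbered samples and at -0.114 to 0.073 for differently numbered ones. With 3 libraries a group, these values cannot tell whether same-numbered samples share mice or a batch. With a replicate block 7, 29 (6 higher, 23 lower) and 33 proteasome genes were called. The order is high against low, ST2KO against low, ST2KO against high. Of all 12219 genes, 3210, 7622 (4039 higher, 3583 lower) and 7885 were called in the same order. Depth limits the genes with the fewest counts most (Psmc3ip, Psmg3, Psmg4 and Psmg1).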
